A study of Mus musculus with 2 samples.

Results

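The genes described here encode the cell death machinery: caspases, the Bcl2 family, the receptors of the TNF receptor superfamily with their adaptors, the inhibitor of apoptosis proteins, and the p53 branch. They were chosen by a rule on the gene symbol, from probe sets with exactly 1 gene symbol in the platform's annotation. The choice was made with earlier results of these data known. The rule found 80 probe sets of 56 genes, out of 8252 genes with such a probe set. The study compared testes of homozygous mutant mice (Mili-/-) with testes of heterozygous mice (Mili+/-), both taken on day 10 after birth. The mutated gene, Piwil2, encodes MILI, a Piwi family protein of germ cells that carries piRNAs. Polyadenylated RNA was hybridised to 1 array for each genotype, and the number of mice pooled for an array is not stated in the labels. No wild-type array was analysed here, and the Mili+/- animals carry a mutant allele too. The submitters chose this age because they had seen dying cells in the mutant testis from day 11 on, and the arrays therefore bear on the death genes shortly before that time.

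Apoptosis runs along 2 main routes. In the mitochondrial route, BH3-only proteins neutralise the survival members of the Bcl2 family or activate the pore formers, cytochrome c leaves the mitochondria, and Apaf1 assembles the apoptosome that activates caspase-9. In the death receptor route, Fas or the TNF receptor recruits Fadd or Tradd and so activates caspase-8. Both routes end in the executioner caspases. Many of these proteins are controlled by cleavage, phosphorylation or location, which an RNA measurement does not record. In the mouse testis, germ cell apoptosis is a normal part of the first wave of spermatogenesis.

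A probe set was compared when its signal reached the median of the non-control probe sets on both arrays, 41.5 for Mili-/- and 38.5 for Mili+/-. Of the 80 member probe sets, 40 did so, 3 reached the median on the Mili-/- array alone, 1 on the Mili+/- array alone and 36 on neither. This share of 50% was close to the 50.2% found over the 10833 non-control probe sets with 1 gene symbol. The 40 compared probe sets represent 33 genes, and the other 23 genes are given below by their signals only. The compared members nearest to the limit were probe sets of Bcl2 (41.9 in Mili-/- and 40 in Mili+/-), Casp9 (42.4 and 72.0 in the same order) and Zmat3 (59.6 and 39.9). Just outside it were a probe set of Tnfrsf1a (67.0 in Mili-/- and 36.9 in Mili+/-), Tnfrsf11b (41.8 in Mili-/- and 34.4 in Mili+/-) and Traf3ip2 (35.9 in Mili-/- and 40.4 in Mili+/-).

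**Figure D1:**
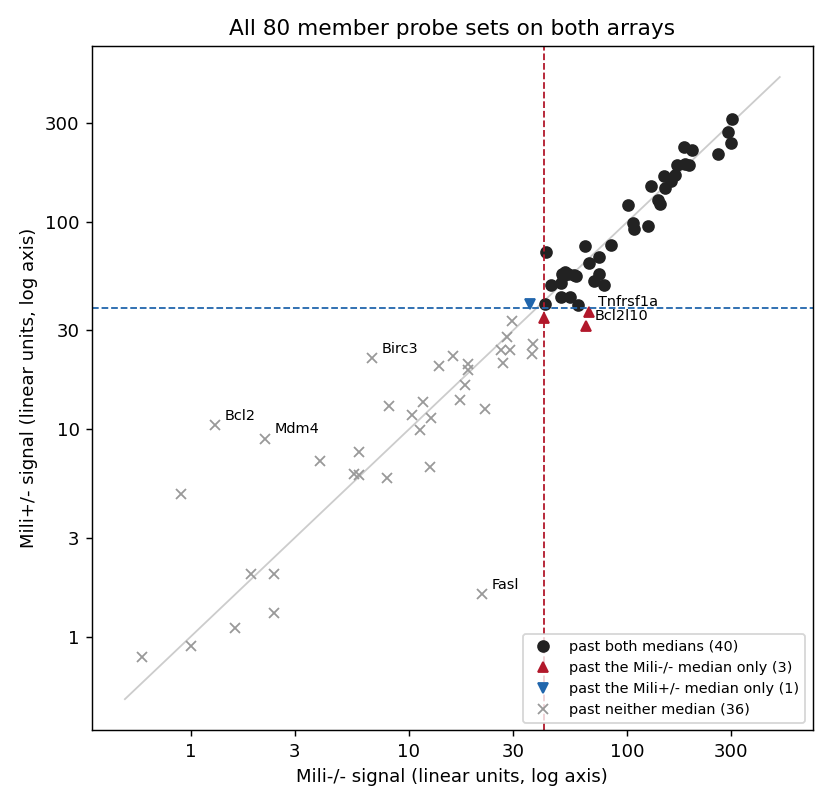
Signals of all 80 member probe sets in linear units on log axes, with the Mili-/- array across and the Mili+/- array upwards. Dashed lines mark the median of each array, and the grey diagonal marks equal signals. The 40 probe sets past both medians lie near the diagonal, while several of the 36 past neither median, such as those of Fasl and Birc3, lie far from it.

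Differences are given as log2 of Mili-/- minus Mili+/-, after each array was centred on its median over all compared probe sets. With 1 array for each genotype there is no spread between animals and no test, and all differences describe these 2 arrays. The only measure of error was the disagreement between probe sets of 1 gene. Its SD was 0.26 on the log2 scale, over 629 genes with several compared probe sets. In whole-testis RNA, fewer cells of a type and less RNA per cell cannot be told apart.

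The signals of the death genes differed little between the arrays. The median difference of the 40 probe sets was 0.08 (quartiles -0.10 and 0.23), beside 0.02 (quartiles -0.14 and 0.19) over the 5433 compared probe sets with 1 gene symbol. Of the 40, 2 were at least 1.5-fold higher in Mili-/-, probe sets of Bad and Zmat3, where 2.85% of all compared probe sets were. At least 1.5-fold lower in Mili-/- was 1 of the 40, a probe set of Casp9, where 1.34% of all were. No member reached 2-fold in either direction, and over all compared probe sets 0.202% were as much higher and 0.0552% as much lower. The members' shares, 5% and 2.5%, rest on 3 probe sets and lie near the background. The split depended on the scaling: with each array centred on all non-control probe sets, 0 members were 1.5-fold higher and 1 lower, and over all compared probe sets 59 were higher and 217 lower, against 155 and 73 here. The member differences kept 1 sign under all 5 scalings of the arrays in 29 probe sets, 14 of them above 0 and 15 below, and changed it in 11. Of all compared probe sets, 30.7% stayed above 0 and 44.6% below. These counts largely follow from the choice of scalings, since centring on all probe sets lowers every difference by the same amount. With that centring 14 members and 30.7% of all compared probe sets were above 0, and the scaling reported here already had 15 members below.

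**Figure D2:**
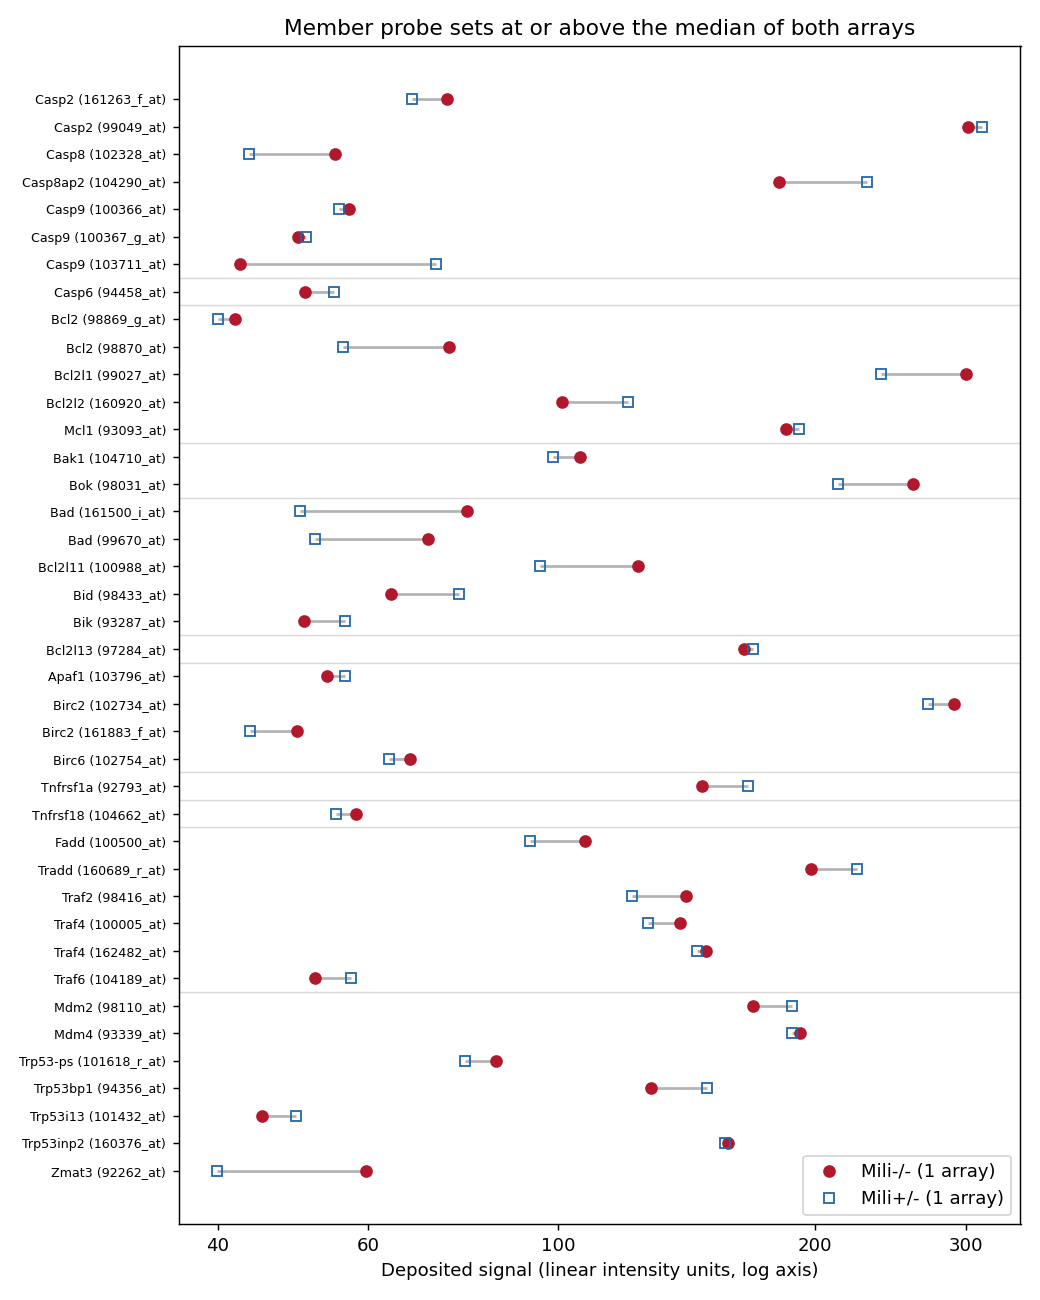
Deposited signals, in linear units on a log axis, of the 40 member probe sets past the median of both arrays, in the order of their roles from caspases to the p53 axis. Filled circles are the Mili-/- array and open squares the Mili+/- array, each a single array. The widest gaps are those of 1 Casp9 probe set, 1 Bad probe set and the Zmat3 probe set.

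The initiator caspases showed no common direction. Casp2, which encodes an initiator caspase linked to DNA damage and oocyte death, gave signals of 301.5 in Mili-/- and 313.7 in Mili+/- (-0.02). Its second probe set, whose suffix marks a sequence family, had 74.1 in Mili-/- and 67.5 in Mili+/- (0.17). Casp8, the initiator at the death receptors, had 54.8 in Mili-/- and 43.5 in Mili+/-, a 1.29-fold higher signal (0.37). Casp8ap2 encodes FLASH, a caspase-8 partner also needed for histone RNA processing. It had 181 in Mili-/- and 230 in Mili+/- (-0.31), and its other probe set was near the bottom of the scale on both arrays (1.9 and 2.0).

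Casp9, the caspase of the apoptosome, was read by 3 compared probe sets that disagreed. The lowest had 42.4 in Mili-/- and 72.0 in Mili+/-, a 1.65-fold lower signal (-0.73). The others had 57.0 in Mili-/- and 55.4 in Mili+/- (0.08), and 49.6 in Mili-/- and 50.7 in Mili+/- (0.01). The gap of 0.81 between the highest and the lowest was the widest among the 6 member genes with several compared probe sets. Casp9 was also the only 1 of these genes with 3 of them, which favours a wider gap. A further probe set was dim, with 11.6 in Mili-/- and 13.5 in Mili+/-. The mean over the compared probe sets was -0.21, under 1.5-fold, so the lower signal was seen in 1 of 3 probe sets and is not shown for the gene. Among compared probe sets of like brightness the central 95% of differences ran from -0.49 to 0.71. The low Casp9 probe set was the only 1 of the 40 members outside the range of its brightness class. That is 2.5% of the members, beside the 5% of all compared probe sets that such a range leaves out.

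Casp6, an executioner caspase, had 50.6 in Mili-/- and 54.7 in Mili+/- (-0.08). All 4 probe sets of inflammatory and other caspases lay under both medians. Casp1, which processes inflammatory cytokines, had 11.2 in Mili-/- and 9.9 in Mili+/-. Casp4, an inflammatory caspase, had 10.3 in Mili-/- and 11.7 in Mili+/-. Casp12 had 5.9 in Mili-/- and 7.8 in Mili+/-. Casp14, known from the epidermis, had 29.1 in Mili-/- and 24.1 in Mili+/-.

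Among the BH3-only proteins, Bad was higher in Mili-/- in both of its probe sets. Bad binds and neutralises Bcl2 and Bcl-xL when growth factor signalling does not keep it phosphorylated. One of its probe sets, which carries a suffix in its name, had 78.2 in Mili-/- and 49.9 in Mili+/-, a 1.61-fold higher signal (0.69). The other had 70.5 in Mili-/- and 51.9 in Mili+/-, 1.39-fold higher (0.48). The gap between them was 0.21. The mean was 0.58, just under 1.5-fold, and the 1.5-fold call rests on the suffixed probe set alone. Both probe sets lay inside the central 95% of probe sets of like brightness, which reached 0.71.

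Bcl2l11 encodes Bim, a BH3-only protein that can bind all the main survival proteins. One of its probe sets had 124 in Mili-/- and 95.2 in Mili+/-, 1.34-fold higher (0.42). Its other probe sets were under both medians and went opposite ways, with 36.7 and 13.8 in Mili-/- against 23.0 and 20.2 in Mili+/-. Bid, which caspase-8 cleaves to link the death receptor route to mitochondria, had 63.8 in Mili-/- and 76.5 in Mili+/- (-0.22). Bik, a BH3-only protein of the endoplasmic reticulum, had 50.4 in Mili-/- and 56.3 in Mili+/- (-0.12). The 5 compared BH3-only probe sets thus fell on both sides of 0, with 3 above and 2 below under every scaling tried. Pmaip1 and Bbc3, which encode Noxa and Puma, had no symbol in the annotation and were not analysed.

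The survival members were also mixed. Bcl2l1, which encodes Bcl-xL, had 300.1 in Mili-/- and 239 in Mili+/-, 1.29-fold higher (0.37), and a second probe set near the bottom of the scale (2.4 and 1.3). Bcl2 had 74.6 in Mili-/- and 56.1 in Mili+/- in 1 probe set (0.45) and 41.9 in Mili-/- and 40 in Mili+/- in another (0.10). The remaining Bcl2 probe set was dim, with 1.3 in Mili-/- and 10.5 in Mili+/-, and gives no direction.

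Bcl2l2 encodes Bcl-w, which mouse males need for lasting spermatogenesis. It had 101 in Mili-/- and 121 in Mili+/- (-0.22). Mcl1, a short-lived survival protein, had 185 in Mili-/- and 191 in Mili+/- (-0.01), the smallest difference in this group. Bcl2l10 had 64.6 in Mili-/- and 31.6 in Mili+/- in a probe set chosen by relaxed rules, which reached the median on the Mili-/- array alone and so could only be higher there. Its other probe set had 17.2 in Mili-/- and 13.8 in Mili+/-.

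The pore formers had 1 probe set each. Bok, a Bax relative prominent in reproductive tissues, had 260.1 in Mili-/- and 212 in Mili+/-, 1.26-fold higher (0.33). Bak1 had 106 in Mili-/- and 98.8 in Mili+/- (0.14), a difference that turned to the other side of 0 when the arrays were centred on all probe sets. Bax had no symbol in the annotation and was not analysed. Bcl2l13, a mitochondrial member of the family, had 165 in Mili-/- and 169 in Mili+/- (0.00).

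**Figure D3:**
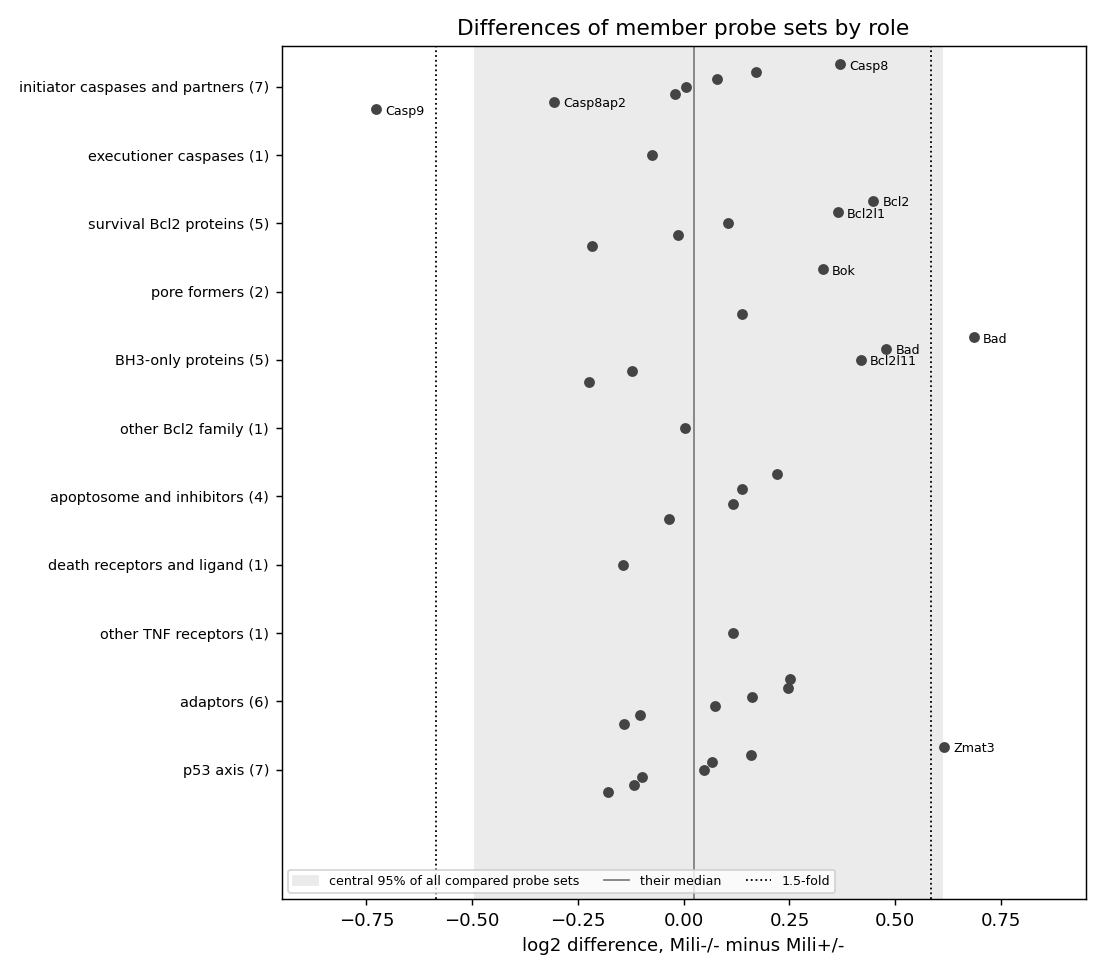
Log2 differences (Mili-/- minus Mili+/-) of the 40 compared member probe sets, grouped by role with the number of probe sets in brackets. The grey band holds the central 95% of the 5433 compared probe sets (-0.49 to 0.61), the line is their median of 0.02, and dotted lines mark 1.5-fold. Only the low Casp9 probe set and probe sets of Bad and Zmat3 lie past 1.5-fold.

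The apoptosome scaffold Apaf1 had 53.7 in Mili-/- and 56.4 in Mili+/- (-0.03). Birc2, a ubiquitin ligase that restrains signalling from the TNF receptor, had 291 in Mili-/- and 271 in Mili+/- (0.14), and 49.5 and 43.6 in a second probe set (0.22). Birc6, a large inhibitor of apoptosis protein, had 67.1 in Mili-/- and 63.5 in Mili+/- (0.12). Under all scalings only the second Birc2 probe set stayed above 0.

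Xiap, the direct caspase inhibitor, was under both medians in all 3 probe sets, with 5.9 to 18.7 in Mili-/- and 6.0 to 19.4 in Mili+/-. Diablo, which encodes the mitochondrial antagonist of these inhibitors, had 5.6 in Mili-/- and 6.1 in Mili+/-. Birc3, the close relative of Birc2, had 6.8 in Mili-/- and 22.1 in Mili+/-. Signals this low are given without a difference, since dim probe sets scattered more: without the brightness filter, 7.33% of all probe sets were at least 1.5-fold higher in Mili-/- and 6.69% as much lower.

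The death receptors with a probe set were dim, apart from the TNF receptor gene Tnfrsf1a, which had 147 in Mili-/- and 167 in Mili+/- (-0.14). A second Tnfrsf1a probe set, chosen by relaxed rules, went the other way with 67.0 in Mili-/- and 36.9 in Mili+/-, and passed the median on the Mili-/- array alone. Fas was at the bottom of the scale in both its probe sets, with 0.6 and 3.9 in Mili-/- against 0.8 and 7.0 in Mili+/-. The higher of these is a control probe set of the array. Fasl, the Fas ligand gene, had 21.7 in Mili-/- and 1.6 in Mili+/-, both under the median, and no second probe set bears on it. Tnfrsf21, a death domain receptor known from neurons, had 29.8 in Mili-/- and 33.2 in Mili+/-. The death receptor genes Tnfrsf10b and Tnfrsf25 had no symbol in the annotation and were not analysed.

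Of 11 probe sets for other TNF receptors, 9 were under both medians, as were 4924 of all 10833 non-control probe sets with 1 gene symbol. The exception past both was Tnfrsf18, which encodes GITR, a TNF receptor superfamily member known from T cells, with 58.1 in Mili-/- and 55.0 in Mili+/- (0.12). Tnfrsf11b, the osteoprotegerin gene, had 41.8 in Mili-/- and 34.4 in Mili+/- and passed on the Mili-/- array alone. The others were Tnfrsf11a (RANK), Tnfrsf17, Tnfrsf19, Tnfrsf1b, Tnfrsf4, Tnfrsf8 and Tnfrsf9, most of them known from lymphocytes. Their signals ran from 0.9 to 27.1 in Mili-/- and from 0.9 to 24.1 in Mili+/-. Lymphocyte markers were low on both arrays too, with a summed signal of 45.6 in Mili-/- and 25.5 in Mili+/- over 6 probe sets, none past the median.

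The adaptors that carry receptor signals were past both medians more often than the receptors, in 6 of 11 probe sets. This was near the share of 50.2% over all non-control probe sets with 1 gene symbol. Fadd, which brings caspase-8 to the receptor, had 108 in Mili-/- and 92.8 in Mili+/- (0.25). Tradd, its counterpart at the TNF receptor, had 198 in Mili-/- and 224 in Mili+/- (-0.14) in a probe set chosen by relaxed rules. Traf2, the ubiquitin ligase partner of Birc2, had 141 in Mili-/- and 122 in Mili+/- (0.25). None of these reached 1.3-fold.

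Traf4 had 139 and 149 in Mili-/- against 128 and 146 in Mili+/- in its probe sets (0.16 and 0.07). Traf6, which relays interleukin and Toll-like receptor signals, had 51.9 in Mili-/- and 57.2 in Mili+/- (-0.10), and 15.9 and 7.9 in Mili-/- against 22.6 and 5.8 in Mili+/- in dim probe sets. Traf5 had 36.9 in Mili-/- and 25.8 in Mili+/-, under both medians, and Traf1 had 2.4 in Mili-/- and 2.0 in Mili+/-. Traf3ip2, an adaptor of cytokine receptors, passed on the Mili+/- array alone. Ripk1 and Traf3 had no symbol in the annotation and were not analysed.

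In the p53 branch, 1 of 7 compared probe sets stood apart in size. Zmat3, a p53 target that encodes an RNA-binding zinc finger protein, had 59.6 in Mili-/- and 39.9 in Mili+/-, 1.53-fold higher (0.62). It lay inside the central 95% of probe sets of like brightness and has no second probe set. Its difference was under 1.5-fold with each of the 4 other scalings, at 0.58 as deposited, 0.51 by loess and by quantile normalization and 0.47 with centring on all probe sets. Mdm2, a ubiquitin ligase for p53 and itself a p53 target, had 169 in Mili-/- and 188 in Mili+/- (-0.12). Mdm4, the related inhibitor of p53, had 192 in Mili-/- and 188 in Mili+/- (0.07), with a dim probe set at 2.2 and 9.0. Zmat3 lay above 0 and Mdm2 below it under all 5 scalings, but the Mdm2 difference was smaller than the SD of 0.26. A common response of p53 targets was not tested.

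Trp53bp1, which encodes a protein that gathers at DNA double-strand breaks, had 129 in Mili-/- and 149 in Mili+/- (-0.18). Trp53inp2, an autophagy gene, had 158 in Mili-/- and 157 in Mili+/- (0.05). Trp53i13 had 45.0 in Mili-/- and 49.4 in Mili+/- (-0.10). Mdm1 was dim, with 12.6 in Mili-/- and 11.4 in Mili+/-. No probe set was assigned to Trp53 itself. A probe set assigned to the pseudogene Trp53-ps had 84.7 in Mili-/- and 77.8 in Mili+/- (0.16) and a second had 28.1 and 28.0, and such a probe set may not separate the pseudogene from Trp53.

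Other genes of the pathway were read from a list beside the members. Of its 68 genes, 28 had a compared probe set, 33 probe sets in all, with a median of 0.04. At least 1.5-fold higher in Mili-/- were 3 of the 33 and none was as much lower, beside 2.85% and 1.34% of all compared probe sets. Of the p53 targets, 8 probe sets ranged from -0.16 for Phlda3 to 0.47 for Cdkn1a, the cell cycle inhibitor gene, which had 65.6 in Mili-/- and 48.6 in Mili+/-. A second Cdkn1a probe set was dim, with 19.7 in Mili-/- and 22.5 in Mili+/-. Ccng1 (0.04), Gadd45a (0.00), Sesn1 (0.09) and Btg2 (0.16), all known p53 targets, differed by less than the SD between probe sets of a gene. The kinase gene Atm, which activates p53 after DNA breaks, stood at -0.46, with 119 in Mili-/- and 168 in Mili+/-.

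Markers of some cell types of the testis also differed between the arrays. The 8 germ cell probe sets summed to 2048 in Mili-/- and 2436 in Mili+/-, with a median of -0.26 over the 6 compared. These ran from -0.57 for Stra8 to 0.03 for Ddx4, and 1 Dazl probe set held much of the sum (1191 in Mili-/- and 1342 in Mili+/-). The 6 Sertoli cell probe sets summed to 5133 in Mili-/- and 4473 in Mili+/-, with a median of 0.21 and a range from 0.00 for Wt1 to 0.68 for Amh. Clu held much of this sum. The 4 endothelial probe sets, 1 of them past both medians, summed to 250.2 in Mili-/- and 168 in Mili+/-, and the 3 adipocyte markers, each under the median on at least 1 array, to 211 and 96.8. The 2 erythroid probe sets, 1 of them past both medians, summed to 1893 in Mili-/- and 1431 in Mili+/-. The sums lay closer for Leydig cells (771 in Mili-/- and 847 in Mili+/-), peritubular cells (1608 and 1587) and macrophages (374 and 368). Within each of these lists the compared markers fell on both sides of 0. They ran from -0.22 to 0.08 for Leydig cells, -0.29 to 0.16 for peritubular cells and -0.29 to 0.24 for macrophages. No marker was listed at 0. In the scaling reported here 62.5% of the compared member probe sets lay above 0, beside 54.5% of all compared probe sets. With the mean per gene the shares were 57.6% of member genes and 54.8% of all compared genes. The part of cell composition in these differences was not tested.

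The annotated starts of Bad and Casp9 are shown because, among genes with several compared probe sets, they hold the single probe sets furthest above and below 0. The mean over its compared probe sets was only -0.21 for Casp9. The windows cover 250 bases before to 50 after each start and come from RefSeq on build GRCm38.p6, where Bad has a pair of starts on chromosome 19 and Casp9 has 1 on chromosome 4. All are on the plus strand. Capitals mark the GC box GGGCGG or its reverse complement CCGCCC. The array does not tell which Bad start was used.
Bad, chr19:6941611-6941910: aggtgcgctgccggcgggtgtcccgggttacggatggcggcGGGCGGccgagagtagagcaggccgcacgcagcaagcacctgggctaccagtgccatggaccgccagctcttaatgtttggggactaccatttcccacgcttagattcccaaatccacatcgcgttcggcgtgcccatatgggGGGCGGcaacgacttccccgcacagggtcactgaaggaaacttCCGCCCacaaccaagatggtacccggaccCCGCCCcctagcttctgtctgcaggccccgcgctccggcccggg
Bad, chr19:6942312-6942611: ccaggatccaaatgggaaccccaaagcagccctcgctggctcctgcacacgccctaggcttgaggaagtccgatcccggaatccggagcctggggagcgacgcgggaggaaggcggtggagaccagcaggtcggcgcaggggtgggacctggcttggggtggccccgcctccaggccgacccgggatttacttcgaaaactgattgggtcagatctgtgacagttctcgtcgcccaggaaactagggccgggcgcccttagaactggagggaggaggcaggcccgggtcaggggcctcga
Casp9, chr4:141793362-141793661: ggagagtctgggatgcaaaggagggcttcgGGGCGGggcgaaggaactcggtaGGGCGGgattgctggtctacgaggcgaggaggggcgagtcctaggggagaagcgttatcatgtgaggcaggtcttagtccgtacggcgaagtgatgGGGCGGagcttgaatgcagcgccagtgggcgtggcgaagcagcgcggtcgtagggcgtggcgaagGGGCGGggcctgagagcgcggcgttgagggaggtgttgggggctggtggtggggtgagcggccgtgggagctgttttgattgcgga

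The first Bad window holds 4 GC boxes, the second none, and the Casp9 window 4. GC boxes occurred in 35.7% of the 32851 promoter windows of the table, and in 38 of 60 windows of the 49 member genes that have one (63.3%). The letters CCAAT, on either strand, occurred in the second Bad window alone, against 37.4% of all windows and 25% of member windows. The letters TATAAA, on either strand, occurred in none of the printed windows, against 13.6% of all windows and 3.33% of member windows. The motifs searched do not overlap one another. Such matches describe the sequence and say nothing on the difference between the arrays.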

How the data were processed

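The deposited table holds linear signal intensities for 12488 probe sets on 2 arrays, 1 for each genotype. From the values, the authors' intensities appear scaled to a common level, since the mean without the lowest and highest 2% was 100.0 on Mili-/- and 100.1 on Mili+/-. The software and the background correction are not stated in the labels, and the table holds no detection calls or scan dates. Piwil2 has no probe set in the annotation, so genotype could not be checked on its transcript.

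Without 66 control probe sets, 12422 remained, of which 10833 carried 1 gene symbol, 396 several and 1193 none. Symbols were updated through a RefSeq table of GRCm38.p6. Probe sets at or above the median on both arrays were compared on the log2 scale, and each array was centred on its median over these 5433 probe sets. An earlier treatment centred on all probe sets, many of them dim, which put the median difference of compared probe sets at -0.12, so changes are given relative to the compared ones. Deposited medians differed by 0.11 over all probe sets and by -0.04 over compared ones (log2). The members and lists were chosen with earlier results of these data known. All members are named, with differences for those past both medians. Other pathway genes and markers came from fixed lists, and those named singly were chosen after their values were seen. No p-value is given, because each group has 1 array, and the number of arrays limits the precision. Alternatives changed the centring, normalization (quantile, loess with span 0.4), brightness filter, suffixed probe sets, averaging per gene, an added 16 and the fold threshold. The code was tested on simulated data. Python 3.11.15, NumPy 2.4.6, pandas 2.3.3 and statsmodels 0.14.6 (loess) were used.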

Additional observations from a re-analysis of the deposited data

How the results depend on the processing

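The counts at 1.5-fold are small and moved with most settings, as did the counts over all probe sets. The number of members at least 1.5-fold higher in Mili-/- (2 as reported) was 0 when arrays were centred on all non-control probe sets, with the filter at the 75th percentile, with 16 added to each signal, and at 2-fold. It was 1 as deposited, after quantile normalization, after loess, without suffixed probe sets and with the mean per gene, 4 with the filter on either array, 5 at 1.3-fold and 6 without a filter. The number lower (1 as reported) was 0 with the filter at the 75th percentile, with 16 added, at 2-fold and with the mean per gene, and 5 without a filter. Over all compared probe sets, the higher and lower counts were 155 and 73 as reported, 59 and 217 with centring on all probe sets, 122 and 85 without centring, 129 and 84 by loess and 125 and 87 by quantile normalization. The median of the members ranged from 0.01 to 0.09, except that centring on all probe sets put it at -0.07, beside -0.12 for all compared probe sets. The probe sets of Casp9, Bad and Zmat3 kept their sign wherever they could be computed. The call lost as deposited, by loess and by quantile normalization was that of Zmat3, and centring on all probe sets or adding 16 also ended that of Bad (0.54 and 0.55). Without a filter Bad (0.57) and Zmat3 (0.50) were both under 1.5-fold, so the 6 counted there were other probe sets. Without suffixed probe sets, and with the mean per gene, the call lost was that of Bad. Casp9 stood at -0.21 with the mean per gene, which averages 3 probe sets. The filter at the 75th percentile leaves out all 3 genes. No paired analysis was possible because each genotype has 1 array. Dim signals limit 23 of the 56 genes.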

Other observations

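The ligands of the TNF family were mostly dim, with 3 of 14 probe sets past both medians. These belong to Lta, the lymphotoxin gene, and Eda, the ectodysplasin gene. Lta had 93.2 in Mili-/- and 48.1 in Mili+/- in 1 probe set (log2 difference 0.99), while a second, whose suffix marks shared sequence, had 5.5 in Mili-/- and 6.6 in Mili+/-. Eda had 74.3 and 55.0 in Mili-/- against 46.5 and 39.9 in Mili+/- (0.71 and 0.50), and a further probe set near the bottom of the scale (0.5 and 0.8). Tnf had 4.8 in Mili-/- and 4.0 in Mili+/-, and Tnfsf10, the gene of the death ligand TRAIL, had 6.1 in Mili-/- and 2.0 in Mili+/-.

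Birc5, which encodes the mitotic protein survivin, stood at 0.42, with 126 in Mili-/- and 97.2 in Mili+/-. Acin1, which encodes a chromatin condensation factor cleaved by caspases, stood at -0.49, with 145 in Mili-/- and 208 in Mili+/-. Bnip2 had 75.4 in Mili-/- and 49.1 in Mili+/- in a probe set chosen by relaxed rules (0.66), and 235 in Mili-/- and 237 in Mili+/- in the other (0.02). Cytochrome c (Cycs, -0.09) and the mitochondrial flavoprotein gene Aifm1 (-0.04) lay within the SD between a gene's probe sets, 0.26. The genes in these paragraphs were chosen after their values were seen. Probe sets shared by several Bcl2a1 genes were left out of the comparison. Their signals, 0.4, 22.6 and 25.1 in Mili-/- against 0.4, 22.1 and 11.7 in Mili+/-, were all under the median.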
